A study of Mus musculus with 18 samples.

Results

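Lysosomal genes and their regulators were described across the livers of 18 mice. The set was given as a list of 40 gene symbols, and all 40 were found among the 54752 genes of the deposited count table. It holds 11 cathepsins and other proteases, 9 glycosidases, 6 genes of lipid handling, 2 acid phosphatases, 6 lysosomal membrane proteins, 3 subunits of the proton pump, progranulin and the transcription factors Tfeb and Mitf. All 40 passed the filter on low counts.

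The lysosome is the acidic compartment in which cells break down proteins, glycans and lipids that reach it by endocytosis, phagocytosis or autophagy. A rotary proton pump, the V-ATPase, keeps it acidic, and most of its enzymes work only at low pH. The transcription factors TFEB, TFE3, TFEC and MITF form a family whose members bind E-box sequences near many lysosomal genes. In the liver, hepatocytes hold many lysosomes, and macrophages are rich in cathepsins and in membrane proteins such as CD68.

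Per the labels, 45 male C57BL/6 mice entered the study at 6 weeks of age, with 15 in each of 3 groups. Control mice had water by gavage each day and olive oil injected into the peritoneum on 2 occasions per week. The CCl4 group had the same daily water and 2 injections of carbon tetrachloride per week, a solvent that liver enzymes turn into a reactive radical and that, given repeatedly, injures hepatocytes and scars the liver. The group called CCl4_PTH had the same CCl4 injections and daily gavage of PTH. The labels use PTH and PZH for the preparation, and the series title names Pien Tze Huang, a traditional Chinese medicine. In week 22, liver from 6 mice per group was sequenced. Libraries are named by their group and label number. The strain and sex are shared by all groups, and the labels do not say whether a piece of liver held tumour.

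Total counts ran from 67229863 to 118877267 per library, of which 30.6% to 55.8% lay on 357 ribosomal RNA loci. The closest pair of libraries within a group differed by a chi-square of 53.6 per gene, far above sampling noise, so none was a copy of another. This cannot show that libraries came from separate mice. Each library was counted as 1 mouse on the word of the labels. Library CCl4_PTH 1 stood apart for several of the genes, and CCl4 4 and CCl4 7 had the most macrophage marker RNA, so counts that turn on them are given with and without them. Control 1 stood apart in its group as well, at a chi-square per gene of 498 to 727 against the other controls. It had 32.5% of counts on ribosomal RNA loci, beside 44.6% to 55.8% in the other controls. The summed level of 9 hepatocyte markers was between 23000 and 64900 CPM (counts scaled to a common library size) in every library, as for liver. Library sizes for CPM were scaled by TMM, a method that sets the bulk of genes to no change. On that scale the median log2 change of all 21840 genes tested was 0.05 for CCl4 against control, -0.03 for CCl4_PTH against CCl4 and 0.04 for CCl4_PTH against control. Scaled to library totals alone, those medians were 0.63, -0.13 and 0.51, so each change is to be read relative to the bulk of genes. A gene was called higher or lower at an adjusted p under 0.05 in edgeR's quasi-likelihood test. In whole liver, fewer cells of a type and less RNA per cell cannot be told apart.

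Of the 40 genes, 34 were in the table of RefSeq promoters (build GRCm38.p6), which holds 250 bases before and 50 bases after each start. The letters CACGTG, the E-box that the TFEB and MITF family binds, stood in promoters of 11 of the 34 genes (32.4%), beside 8.09% of all 27025 genes in the table. E-boxes of 6 genes are printed because Mitf changed after CCl4 and Tfeb did not pass the test. Ctsd and Gla each hold a second E-box, at positions -245 and -194 from the start, outside the stretch shown. Each stretch is written 5′ to 3′ on the gene's own strand, with the E-box in capitals, and the last with the reverse complement of GAGGAAGT, a sequence that the macrophage factor PU.1 is known to bind, in capitals.
Lamp1: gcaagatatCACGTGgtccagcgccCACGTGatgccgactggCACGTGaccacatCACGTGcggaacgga
Mcoln1: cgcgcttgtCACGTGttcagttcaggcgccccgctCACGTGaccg
Ctsd: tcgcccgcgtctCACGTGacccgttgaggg
Lgmn: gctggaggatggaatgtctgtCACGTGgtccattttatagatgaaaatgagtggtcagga
Gla: ttgatCACGTGagcatctacgtcatgtgag
Gaa: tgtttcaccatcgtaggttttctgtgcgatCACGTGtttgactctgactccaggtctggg
Ctsc: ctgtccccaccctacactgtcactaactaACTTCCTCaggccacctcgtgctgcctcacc

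The Lamp1 stretch ends at the base before the gene's start (chr8:13159091-13159160, plus strand) and holds 4 E-boxes within 70 bases. The Mcoln1 stretch (chr8:3500439-3500483, plus strand) holds 2 and reaches into an exon that GENCODE M21 gives to a longer Mcoln1 transcript. The Ctsd stretch (chr7:142387908-142387937, minus strand) lies in the untranslated first exon of a longer Ctsd transcript, and the Lgmn stretch (chr12:102439103-102439162, minus strand) in an intron of Lgmn. The Gla stretch (chrX:134601208-134601237, minus strand) lies in an untranslated exon of Hnrnph2, the neighbouring gene that runs the other way. The Gaa stretch (chr11:119267793-119267852, plus strand) and the Ctsc stretch (chr7:88277905-88277964, plus strand) lie in no annotated gene. Of the 11 genes with an E-box, 5 rose after CCl4 (Atp6v1a, Ctsd, Ctsl, Gla and Lgmn), 2 fell (Gaa and Mcoln1) and 4 were not called (Ctsa, Glb1, Lamp1 and Naglu), whereas 19 of the 34 rose, 6 fell and 9 were not called.

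A further 4 motifs were searched on both strands. The letters TCACGTGA, which contain the E-box, were in promoters of 5 of the 34 genes (14.7%) and of 1.12% of all genes. The CLEAR element known for TFEB, taken as these letters with a G before and a C after,  was in 0 of the 34 and in 0.37% of all genes. The M-box TCATGTG, a site known for MITF, was in 8 of the 34 (23.5%) and in 4.31% of all genes. GAGGAAGT was in 4 of the 34 (11.8%), namely Ctsc, Ctss, Gla and Gusb, and in 3.69% of all genes. All 4 of these genes rose after CCl4, beside 19 of all 34. Cd68 and Laptm5, which rose too, held no match in this window. Of the 8 genes with the M-box, 4 rose, 2 fell and 2 were not called. Of the 5 with TCACGTGA, 3 rose, 1 fell and 1 was not called. A match is a run of letters and was not tested for binding.

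After CCl4, lysosomal genes did not move as a block. Against control, 23 of the 40 rose and 8 fell, and 9 were not called, at log2 changes from -0.83 to 3.13 with a median of 0.42. The share called was 77.5%, beside 47.4% of all genes tested, with 57.5% higher beside 26.3% and 20% lower beside 21.2%. The share that rose was above that of the whole table, and the share that fell was near it. The 40 genes were chosen with earlier results of these data known, so this contrast describes the list only. Of 122 other genes of the pathway, 29.5% were higher and 31.1% lower. Every CCl4 library lay above every control library for 21 of the 40 genes, all among the 23 that rose. Every CCl4 library lay below for 7 of the 40, all among the 8 that fell. Of all genes tested, 14.8% lay wholly above and 11.3% wholly below. The summed level of the 40 genes was 3030 to 3150 CPM in control, 3590 to 4980 CPM in CCl4 and 3300 to 3940 CPM in CCl4_PTH. The 8 that fell (Ctsh, Tpp1, Gaa, Neu1, Npc1, Lamp2, Scarb2 and Mcoln1) did so relative to the bulk of genes. Scaled to library totals alone 0 of them was called lower, and scaled to totals without ribosomal RNA loci 1 was. All 8 stayed below the median of all genes under each scaling. A change of scaling shifts nearly all genes of a comparison alike, so this outcome was set in advance and adds no support.

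**Figure D1:**
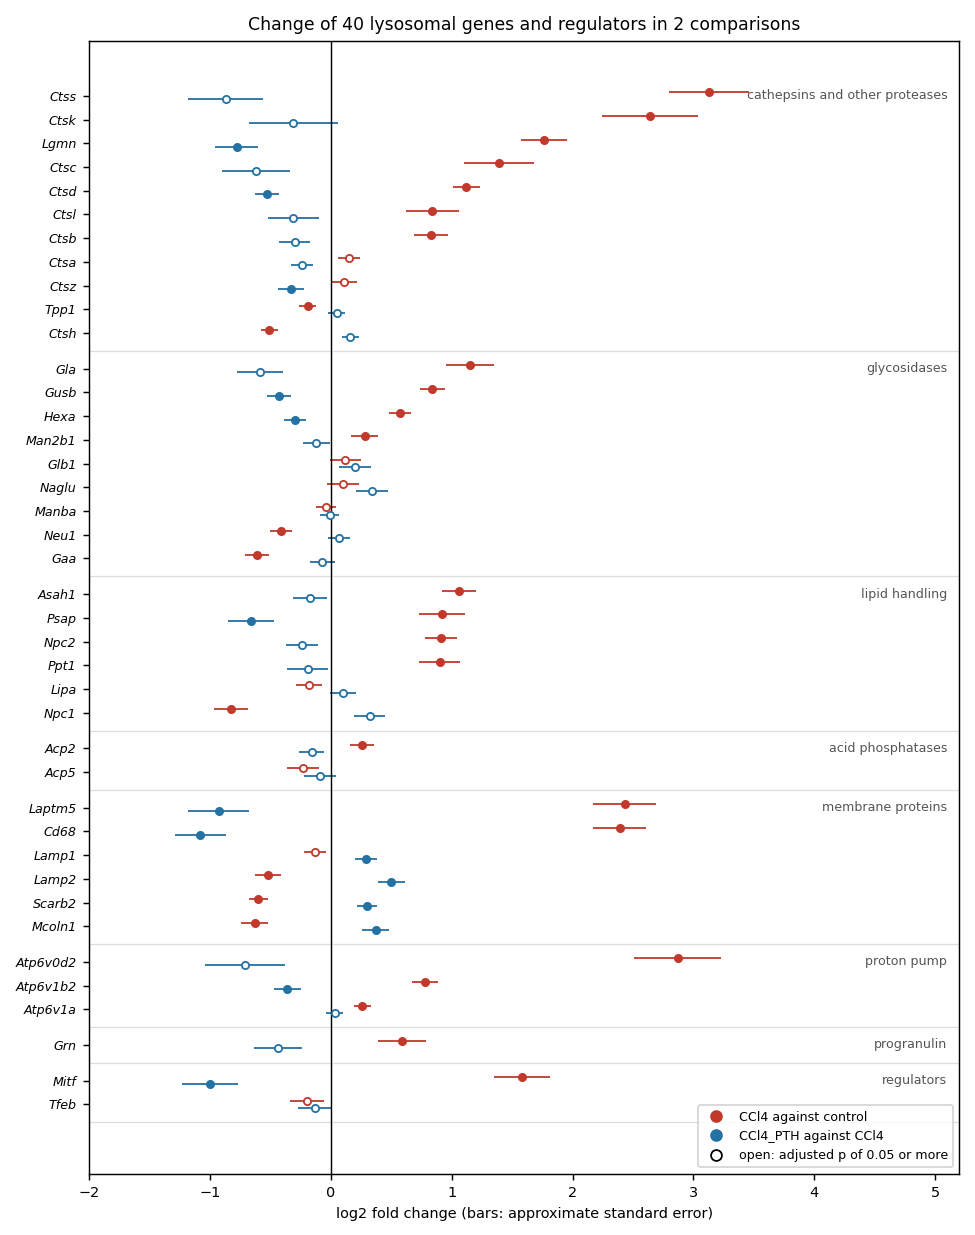
Log2 fold changes (x axis) of the 40 genes, grouped by role, for CCl4 against control (red) and CCl4_PTH against CCl4 (blue). Points are edgeR estimates from 6 libraries per group, bars the approximate standard error, and open points genes not called. Red points run from -0.83 (Npc1) to 3.13 (Ctss) and blue points from -1.08 (Cd68) to 0.50 (Lamp2). The changes are on the TMM scale.

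Among the proteases, 7 of 11 rose after CCl4, led by cathepsins S and K. Cathepsin S (Ctss, chr3:95526786-95556403) is the protease that trims the invariant chain during antigen presentation. Its level was 15.6 to 21.7 CPM in control (median 17.2), 76.9 to 326 CPM in CCl4 (median 120) and 48.4 to 109 CPM in CCl4_PTH (median 92.6). Every library of both CCl4-injected groups lay above every control library, and those groups overlapped each other. Ctss was 8.75-fold higher in CCl4 than in control (log2 3.13 ± 0.33 standard error, adjusted p = 9.5e-07), and CCl4_PTH against CCl4 gave a log2 change of -0.87 ± 0.31 that missed the threshold (adjusted p = 0.0727). Its neighbour on chromosome 3, the bone collagenase cathepsin K (Ctsk), had 0.215 to 1.43 CPM in control, 3.05 to 5.44 CPM in CCl4 and 1.37 to 6.15 CPM in CCl4_PTH. Ctsk was 6.23-fold higher in CCl4 than in control at low levels (log2 2.64 ± 0.40).

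Legumain (Lgmn), which cleaves after asparagine and activates other cathepsins, had 31.4 to 38.1 CPM in control (median 35.1), 77.5 to 171 CPM in CCl4 (median 111) and 49.5 to 93.3 CPM in CCl4_PTH (median 66.9). The CCl4_PTH median lay between the others, and only the CCl4 and CCl4_PTH libraries overlapped. Lgmn was 3.38-fold higher in CCl4 than in control (log2 1.76 ± 0.19, adjusted p = 7.79e-07) and 1.72-fold lower in CCl4_PTH than in CCl4 (log2 -0.78 ± 0.18, adjusted p = 0.0104). Cathepsin D (Ctsd), the main aspartic protease of the lysosome, had 165 to 188 CPM in control (median 168), 320 to 444 CPM in CCl4 (median 359) and 223 to 287 CPM in CCl4_PTH (median 259). For Ctsd no group overlapped another. It was 2.17-fold higher in CCl4 than in control (log2 1.12 ± 0.11, adjusted p = 2.35e-07) and 1.45-fold lower in CCl4_PTH than in CCl4 (log2 -0.53 ± 0.10, adjusted p = 0.00428).

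Cathepsins B, L and C also rose after CCl4, at log2 changes of 0.83 ± 0.14 (Ctsb), 0.84 ± 0.22 (Ctsl) and 1.39 ± 0.29 (Ctsc). Ctsc, which activates the granule proteases of immune cells, ran from 62.2 to 227 CPM among the CCl4 libraries, with the highest in CCl4 4. For Ctsl 1 library decided the CCl4_PTH comparison: CCl4_PTH 1 stood at 557 CPM while the other 5 had 187 to 256 CPM. CCl4_PTH 1 also had the highest neutrophil marker sum of its group, 163 CPM beside a group median of 15.2 CPM. It was highest or lowest of its group for most other marker lists too. The part of these cells in its levels of Ctsl and Grn was not tested. Ctsl was not called with all libraries (log2 -0.31 ± 0.21, adjusted p = 0.376) and was lower in CCl4_PTH than in CCl4 without that library (log2 -0.61, adjusted p = 0.00421). Cathepsin Z (Ctsz) and the protective protein cathepsin A (Ctsa) were not called after CCl4. Ctsz had 73.3 to 90.2 CPM in control (median 86.7), 64.5 to 105 CPM in CCl4 (median 96.4) and 65.0 to 79.4 CPM in CCl4_PTH (median 72.3), and all 3 groups overlapped. Its call as lower in CCl4_PTH than in CCl4 lay at the threshold (log2 -0.33 ± 0.11, adjusted p = 0.0497).

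The aminopeptidase cathepsin H (Ctsh) went the other way. It had 118 to 127 CPM in control (median 122), 82.8 to 92.4 CPM in CCl4 (median 85) and 86.6 to 101 CPM in CCl4_PTH (median 97.7). Every CCl4 and every CCl4_PTH library lay below every control library. Ctsh fell by 0.51 ± 0.07 on the log2 scale after CCl4 (adjusted p = 6.65e-06), a change that was 0.07 and not called when libraries were scaled to their totals alone. Tripeptidyl peptidase (Tpp1) fell by 0.19 ± 0.07 (adjusted p = 0.0263), with 1 of the 6 CCl4 libraries inside the control range, and was at 0.38 and called higher under scaling to totals alone. Without CCl4 4, Tpp1 was not called (log2 -0.15, adjusted p = 0.0873).

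Of the 9 glycosidases, enzymes that take sugars off glycolipids and glycoproteins one at a time, 4 rose and 2 fell after CCl4. Beta-glucuronidase (Gusb) had 11.6 to 16.4 CPM in control (median 14.4), 22.0 to 28.9 CPM in CCl4 (median 24.9) and 15.7 to 21.7 CPM in CCl4_PTH (median 19.3). The CCl4 libraries lay above all others, and CCl4_PTH overlapped control. Gusb was 1.79-fold higher in CCl4 than in control (log2 0.84 ± 0.10, adjusted p = 4.08e-06) and 1.34-fold lower in CCl4_PTH than in CCl4 (log2 -0.43 ± 0.10, adjusted p = 0.0133). Hexosaminidase A (Hexa), the enzyme missing in Tay-Sachs disease, had 25.5 to 30.1 CPM in control (median 28.4), 36.3 to 46.2 CPM in CCl4 (median 42.7) and 29.3 to 38.5 CPM in CCl4_PTH (median 34.5). Control and CCl4 did not overlap for Hexa, whereas CCl4_PTH overlapped each of them. Hexa was 1.48-fold higher in CCl4 than in control (log2 0.57 ± 0.09, adjusted p = 2.89e-05) and 1.23-fold lower in CCl4_PTH than in CCl4 (adjusted p = 0.0291).

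Alpha-galactosidase (Gla), the enzyme missing in Fabry disease, rose by 1.15 ± 0.20 on the log2 scale from 2.60 to 3.81 CPM in control. Alpha-mannosidase (Man2b1) rose by 0.28 ± 0.11 (adjusted p = 0.0421), and it was not called without CCl4 4 (adjusted p = 0.065). Acid alpha-glucosidase (Gaa), which digests glycogen in the lysosome, fell by 0.61 ± 0.10 on the log2 scale after CCl4, and sialidase (Neu1) fell by 0.41 ± 0.09. Scaled to totals alone the change of Gaa was -0.02 and that of Neu1 0.17, neither of them called. Gaa had 61.9 to 90.4 CPM in control, 44.6 to 57.9 CPM in CCl4 and 39.9 to 52.7 CPM in CCl4_PTH.

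Glb1, Manba and Naglu, which remove galactose, mannose and N-acetylglucosamine, were among the 5 genes with the largest p after CCl4, with Ctsz and Tfeb. Manba had 13.1 to 19.1 CPM in control (median 15.7), 13.6 to 16.9 CPM in CCl4 (median 15.4) and 14.1 to 16.1 CPM in CCl4_PTH (median 15.5), so the groups lay on one another. Naglu had 8.43 to 14.1 CPM in control (median 9.25), 9.29 to 12.7 CPM in CCl4 (median 10.9) and 11.7 to 15.6 CPM in CCl4_PTH (median 13.9). Glb1 had 7.09 to 10.6 CPM in control (median 7.88), 7.36 to 10.5 CPM in CCl4 (median 9.83) and 8.11 to 12.1 CPM in CCl4_PTH (median 10.9). All groups of these 3 genes overlapped, at log2 changes after CCl4 of -0.04 ± 0.08 (Manba), 0.10 ± 0.13 (Naglu) and 0.12 ± 0.13 (Glb1). Naglu alone of the 9 genes not called after CCl4 was higher in CCl4_PTH than in control (log2 0.43 ± 0.13, adjusted p = 0.0163).

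Of the 6 genes of lipid handling, 4 rose by similar amounts, with log2 changes between 0.90 and 1.06, 1 fell and 1 was not called. Prosaposin (Psap), the precursor of the saposins that present sphingolipids to their hydrolases, had 206 to 326 CPM in control (median 311), 380 to 891 CPM in CCl4 (median 465) and 294 to 378 CPM in CCl4_PTH (median 350). The CCl4 libraries lay above all others, CCl4 4 highest, and CCl4_PTH overlapped control. Psap was 1.89-fold higher in CCl4 than in control (log2 0.92 ± 0.19, adjusted p = 0.000581) and 1.58-fold lower in CCl4_PTH than in CCl4 (log2 -0.66 ± 0.19, adjusted p = 0.0285). Acid ceramidase (Asah1) had 17.4 to 23.7 CPM in control (median 19.1), 31.5 to 53.0 CPM in CCl4 (median 40.4) and 32.3 to 49.1 CPM in CCl4_PTH (median 34.4). Both CCl4-injected groups lay above control, and the CCl4_PTH range lay inside the CCl4 range. Asah1 was 2.08-fold higher in CCl4 than in control (log2 1.06 ± 0.14, adjusted p = 9.16e-06), and CCl4_PTH against CCl4 was at -0.17 ± 0.14 (adjusted p = 0.477).

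Npc2 and Npc1 hand cholesterol from the lysosome's lumen to its membrane, and they moved in opposite directions. Npc2, the soluble carrier, rose by 0.91 ± 0.13 on the log2 scale (26.5 to 34.4 CPM in control, 42.8 to 80.3 CPM in CCl4). Npc1, the membrane protein, fell by 0.83 ± 0.14 (145 to 203 CPM in control, 73.4 to 126 CPM in CCl4), and scaled to totals alone it was at -0.28 and not called. Neither gene was called in CCl4_PTH against CCl4 (Npc2 -0.24 ± 0.13, Npc1 0.32 ± 0.13). The thioesterase Ppt1 rose by 0.90 ± 0.17, and the acid lipase Lipa was not called after CCl4 (log2 -0.18 ± 0.11).

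The acid phosphatases changed little. Acp2 rose by 0.26 ± 0.10 on the log2 scale with 3 of 6 CCl4 libraries above the control range (adjusted p = 0.0401), and it was not called without CCl4 4 (adjusted p = 0.0761). Acp5, the tartrate-resistant phosphatase of osteoclasts and some macrophages, was not called (log2 -0.23 ± 0.13).

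The 6 membrane proteins split into Cd68 and Laptm5, which rose, and general lysosomal proteins that fell or were not called. Cd68 (chr11:69664213-69666153), a heavily glycosylated protein of macrophage lysosomes, had 3.17 to 4.86 CPM in control (median 4.35), 14.8 to 34.6 CPM in CCl4 (median 17.7) and 6.97 to 13.9 CPM in CCl4_PTH (median 10.1). No group overlapped another. Cd68 was 5.26-fold higher in CCl4 than in control (log2 2.39 ± 0.22, adjusted p = 1.98e-07) and 2.11-fold lower in CCl4_PTH than in CCl4 (log2 -1.08 ± 0.21, adjusted p = 0.00415). Laptm5, a lysosomal protein of blood cells, had 7.18 to 12 CPM in control (median 9.74), 29.6 to 85.1 CPM in CCl4 (median 46.0) and 18.8 to 36.8 CPM in CCl4_PTH (median 26.3). Both injected groups lay above control, and 4 of 6 CCl4_PTH libraries lay below the CCl4 range. Laptm5 was 5.40-fold higher in CCl4 than in control (log2 2.43 ± 0.26, adjusted p = 1.21e-06) and 1.91-fold lower in CCl4_PTH than in CCl4 (adjusted p = 0.022).

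Lamp2, a main glycoprotein of the lysosomal membrane with a role in autophagy, had 300 to 344 CPM in control (median 320), 186 to 262 CPM in CCl4 (median 233) and 279 to 376 CPM in CCl4_PTH (median 314). The CCl4 libraries lay below all others, and CCl4_PTH overlapped control. Lamp2 fell by 0.52 ± 0.11 on the log2 scale after CCl4 (adjusted p = 0.000569; 0.05 and not called when scaled to totals alone) and was 1.41-fold higher in CCl4_PTH than in CCl4 (log2 0.50 ± 0.11, adjusted p = 0.00691). Scarb2, the receptor that carries glucocerebrosidase to the lysosome, had 164 to 215 CPM in control (median 191), 118 to 134 CPM in CCl4 (median 129) and 146 to 166 CPM in CCl4_PTH (median 158). Its CCl4 libraries lay below all others too, and 1 CCl4_PTH library reached into the control range. Scarb2 fell by 0.60 ± 0.08 after CCl4 (adjusted p = 1.41e-05) and was 1.23-fold higher in CCl4_PTH than in CCl4 (log2 0.30 ± 0.08, adjusted p = 0.0269), while both changes kept their sign but were not called when scaled to totals alone.

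Mcoln1, the lysosomal calcium channel whose promoter holds 2 E-boxes, fell by 0.63 ± 0.11 after CCl4 (-0.05 and not called when scaled to totals alone) and was 1.29-fold higher in CCl4_PTH than in CCl4 (log2 0.37 ± 0.11, adjusted p = 0.0329). It had 21.9 to 26.7 CPM in control, 13.4 to 17.0 CPM in CCl4 and 14.0 to 24.2 CPM in CCl4_PTH. Lamp1, with 4 E-boxes, was not called after CCl4 (log2 -0.13 ± 0.09) and was 1.22-fold higher in CCl4_PTH than in CCl4 (log2 0.29 ± 0.09, adjusted p = 0.037). Its CCl4_PTH libraries (268 to 337 CPM) lay above all CCl4 libraries (234 to 267 CPM).

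**Figure D2:**
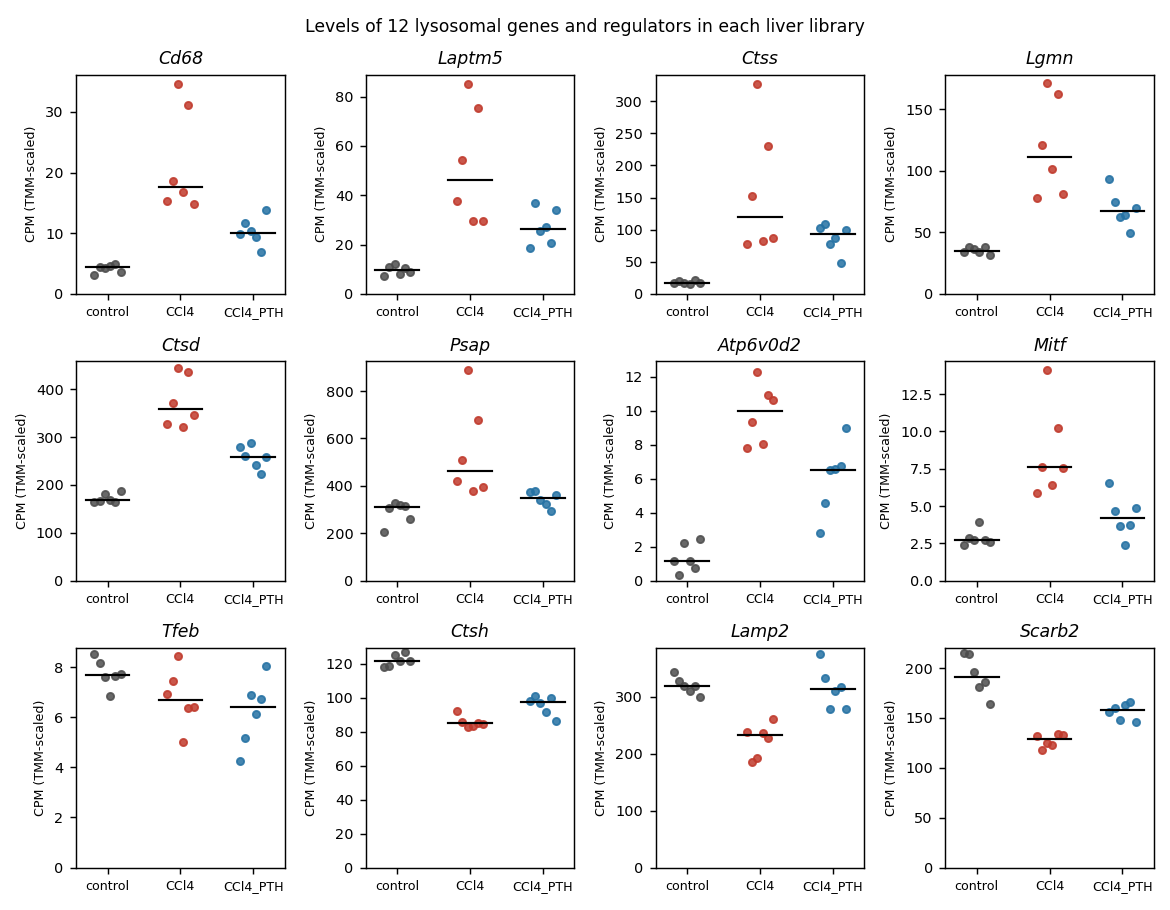
Level in CPM (TMM-scaled, y axis from 0) of 12 of the genes in each of the 18 libraries, by group, with a bar at the group median. Cd68 and Ctsd show 3 groups that do not overlap, Lamp2 and Scarb2 are lowest in CCl4, and the groups of Tfeb overlap. The highest CCl4 points of Cd68 (34.6 CPM) and Mitf (14.1 CPM) are library CCl4 4.

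All 3 proton pump subunits of the set rose after CCl4, by very different amounts. Atp6v0d2 (chr4:19876841-19922605), a form of subunit d of the membrane sector known from osteoclasts and macrophages, had 0.324 to 2.46 CPM in control (median 1.15), 7.82 to 12.3 CPM in CCl4 (median 9.95) and 2.83 to 9.01 CPM in CCl4_PTH (median 6.52). Both injected groups lay above control, and 5 of 6 CCl4_PTH libraries lay below the CCl4 range. Atp6v0d2 was 7.30-fold higher in CCl4 than in control (log2 2.87 ± 0.36, adjusted p = 5.72e-06), and in CCl4_PTH against CCl4 it was at -0.71 ± 0.33 (adjusted p = 0.18). Its ubiquitous counterpart Atp6v0d1, outside the set, had 31.8 to 38.5 CPM in control and 27.4 to 33.5 CPM in CCl4 and was not called (log2 -0.09 ± 0.08). Of 8 osteoclast markers, Calcr was at 0 in all CCl4 libraries and Oscar reached at most 0.0519 CPM there, while 3 of the 6 tested rose after CCl4. These were Tnfrsf11a, the receptor for RANKL (log2 2.72 ± 0.24, 0.873 to 1.59 CPM in control and 5.57 to 12 CPM in CCl4), Mmp9 (log2 2.37 ± 0.58) and Nfatc1 (log2 0.29 ± 0.11). The summed level of the 8 was 15.9 to 22.9 CPM in control, 26.2 to 47.0 CPM in CCl4 and 19.9 to 61.7 CPM in CCl4_PTH, and the part of such cells in the rise of Atp6v0d2 was not tested.

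Atp6v1b2, the B subunit of the pump's catalytic sector, had 24.0 to 28.8 CPM in control (median 26.4), 37.2 to 62.7 CPM in CCl4 (median 42.2) and 31.8 to 38.8 CPM in CCl4_PTH (median 35.6). Control lay below both injected groups, and 1 CCl4_PTH library reached the CCl4 range. Atp6v1b2 was 1.72-fold higher in CCl4 than in control (log2 0.78 ± 0.11, adjusted p = 8.78e-06) and 1.29-fold lower in CCl4_PTH than in CCl4 (adjusted p = 0.0306). Atp6v1a, the catalytic A subunit, rose by 0.26 ± 0.07, and CCl4_PTH against CCl4 was at 0.03 ± 0.07.

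Progranulin (Grn), a secreted protein that is cut into granulins in the lysosome, rose by 0.59 ± 0.20 after CCl4 (adjusted p = 0.0194), with 75.9 to 126 CPM in control and 141 to 186 CPM in CCl4. Without controls 1 and 8, Grn was not called (log2 0.38, adjusted p = 0.143). In CCl4_PTH, 5 libraries had 95.4 to 104 CPM and CCl4_PTH 1 had 229 CPM. With that library Grn was not called against CCl4 (log2 -0.44 ± 0.20, adjusted p = 0.16), and without it Grn was lower (log2 -0.69, adjusted p = 0.00134).

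Of the 2 transcription factors, Mitf rose and Tfeb was not called. Mitf, known for its part in melanocytes, osteoclasts and macrophages, had 2.41 to 3.95 CPM in control (median 2.74), 5.89 to 14.1 CPM in CCl4 (median 7.59) and 2.36 to 6.54 CPM in CCl4_PTH (median 4.22). Every CCl4 library lay above every control library, and 5 of 6 CCl4_PTH libraries lay below the CCl4 range. Mitf was 3.0-fold higher in CCl4 than in control (log2 1.58 ± 0.23, adjusted p = 2.27e-05) and 2.0-fold lower in CCl4_PTH than in CCl4 (log2 -1.0 ± 0.23, adjusted p = 0.00918). Tfeb, which drives many lysosomal genes when it enters the nucleus, had 6.86 to 8.54 CPM in control (median 7.69), 5.01 to 8.43 CPM in CCl4 (median 6.67) and 4.24 to 8.04 CPM in CCl4_PTH (median 6.43). The 3 groups of Tfeb overlapped, at log2 changes of -0.20 ± 0.14 after CCl4 (adjusted p = 0.264) and -0.13 ± 0.14 in CCl4_PTH against CCl4 (adjusted p = 0.614). RNA levels do not show where the protein lay. Of their relatives outside the set, Tfec was 3.67-fold higher in CCl4 than in control (log2 1.88 ± 0.27) and Tfe3 1.32-fold higher (log2 0.40 ± 0.10).

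The rise was uneven among the CCl4 livers. Library CCl4 4 was the highest CCl4 library for 17 of the 23 genes that rose and CCl4 7 for 4 of them. The same 2 libraries had the highest summed level of 16 macrophage markers, 1330 CPM and 1150 CPM, while the other 4 CCl4 libraries had 605 to 828 CPM. That sum was 210 to 256 CPM in control and 433 to 719 CPM in CCl4_PTH, with 15 of the 16 markers called higher after CCl4 and none at 0 over a whole group. Of 10 Kupffer cell markers 7 rose, among them C1qa, C1qb, C1qc and Cd5l, while Clec4f (log2 -0.26 ± 0.12), Timd4 (-0.10 ± 0.55) and Slc40a1 (-0.12 ± 0.11) were not called. Their summed level was 253 to 334 CPM in control, 349 to 864 CPM in CCl4 and 321 to 592 CPM in CCl4_PTH. The summed level of hepatocyte markers was 49300 to 64900 CPM in control and 23000 to 55900 CPM in CCl4, and 5 of 9 fell after CCl4. It was lowest in CCl4 4, while CCl4 5 (54100 CPM) and CCl4 8 (55900 CPM) lay inside the control range. Markers of most other cells rose too: 6 of 7 for neutrophils, 6 of 8 for T and NK cells and 5 of 5 for B cells. So did 4 of 6 for dendritic cells, 6 of 9 for stellate cells and myofibroblasts and 5 of 5 for cholangiocytes. Summed levels in control and in CCl4 were 1.48 to 2.79 and 2.52 to 27.6 CPM for T and NK cells, 1.6 to 4.67 and 4.41 to 20.1 CPM for B cells, 4.68 to 9.83 and 14.5 to 25.3 CPM for cholangiocytes, and 255 to 324 and 517 to 897 CPM for stellate cells and myofibroblasts. CCl4 4 had the highest sum of the CCl4 libraries for each of these lists and for dendritic cells (59.9 CPM), while CCl4 2 had the highest for neutrophils. The neutrophil sum was 1.82 to 4.23 CPM in control, where Ly6g and Mpo were at 0, 13.5 to 91.2 CPM in CCl4 and 12.2 to 163 CPM in CCl4_PTH. Of 6 endothelial markers 3 rose and 2 fell after CCl4. Their summed level was 202 to 233 CPM in control and 184 to 222 CPM in CCl4. The part of these cell types in the lysosomal changes was not tested.

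**Figure D3:**
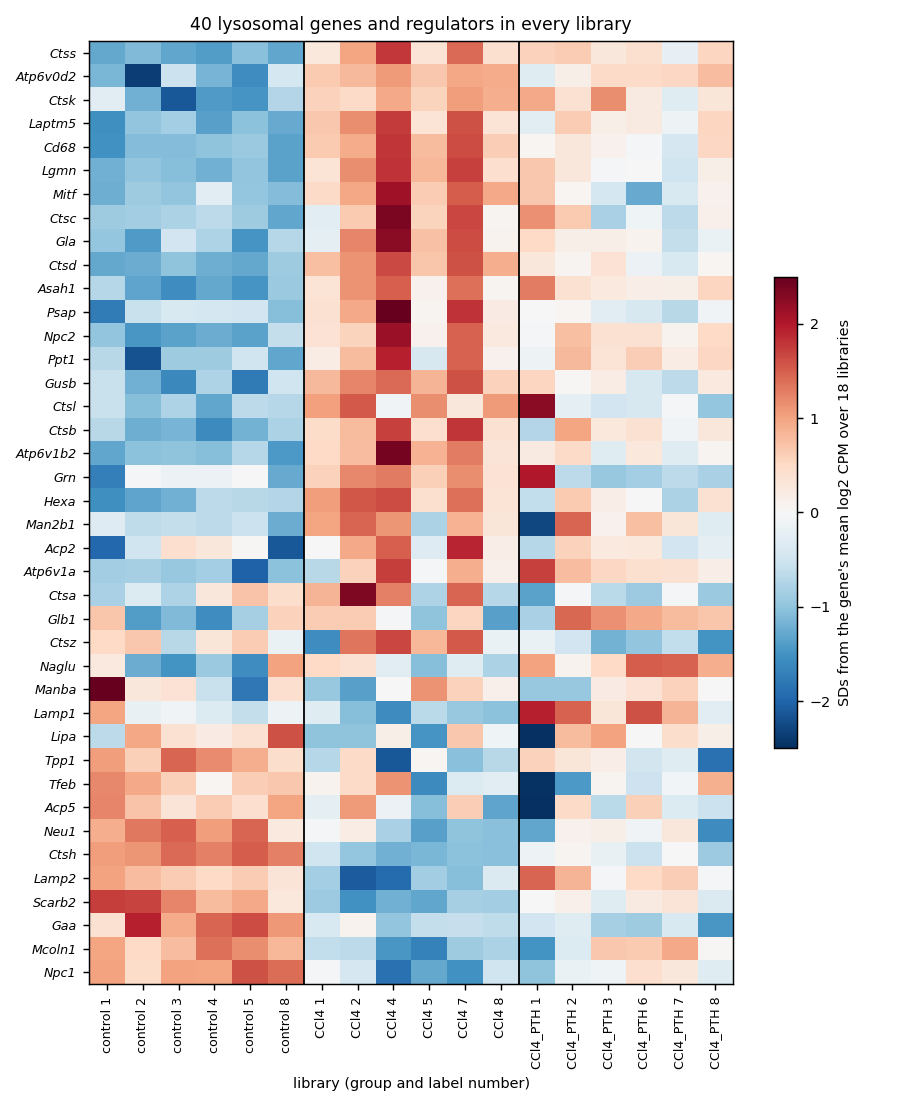
Each of the 40 genes (rows, in order of log2 change after CCl4) in each of the 18 libraries (columns), coloured by the distance from the gene's mean log2 CPM in standard deviations over the 18 libraries. Columns CCl4 4 and CCl4 7 are the darkest red in most of the upper rows, and in CCl4_PTH 1 the genes Ctsl and Grn stand apart.

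CCl4_PTH against CCl4 compares the same injections with and without the preparation. Here 10 of the 40 genes were lower (Ctsd, Lgmn, Ctsz, Hexa, Gusb, Psap, Laptm5, Cd68, Atp6v1b2 and Mitf), 4 were higher (Lamp1, Lamp2, Scarb2 and Mcoln1) and 26 were not called. That is 35.0%, beside 12.1% of all genes tested, with 25% lower beside 4.95% and 10% higher beside 7.1%. Of the 40, every CCl4_PTH library lay below every CCl4 library for 4 and above for 3, all of them called. Of all genes tested those shares were 1.87% and 2.2% (4.07% together). The median log2 change of the 40 was -0.22. Both comparisons use the CCl4 libraries, so the values of one are not independent of the other.

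Fewer genes of the set were called without the CCl4 libraries with the most macrophage marker RNA, fits that also rest on fewer mice. The share of all genes called in these smaller fits was not set beside them. Whether the loss of calls was particular to lysosomal genes or tied to macrophage RNA was therefore not tested. Without CCl4 4, 5 genes were lower and 2 higher, and without CCl4 4 and CCl4 7, 2 were lower (Cd68 at log2 -0.66, adjusted p = 0.0285, and Ctsd at -0.40, adjusted p = 0.0297) and 1 was higher (Lamp2 at 0.45, adjusted p = 0.0409). Fitted on these 2 groups alone, 5 were lower (Ctsd, Lgmn, Gusb, Cd68 and Mitf), and scaled to library totals alone 6 were lower and 0 higher. Without CCl4_PTH 1, 12 were lower, with Ctsl, Gla and Grn added and Hexa lost, and 5 were higher, with Npc1 added. With a block on the label numbers, which were not taken as pairs, all 14 calls were lost. In each of these fits the 10 genes stayed below the median of all genes and the 4 above it. For the scaling to totals this was set in advance, and the other fits reuse libraries of the main fit. By comparison, CCl4 against control without CCl4 4 and CCl4 7 gave 19 genes higher and 7 lower.

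Against control, CCl4_PTH livers had 17 of the 40 genes higher and 5 lower (Ctsh, Gaa, Neu1, Npc1 and Scarb2), with 18 not called. The share called was 55.0% beside 27.7% of all genes tested, with 42.5% higher beside 17.4% and 12.5% lower beside 10.3%. Every CCl4_PTH library lay above every control library for 11 of the 40 and below for 3 (9.79% and 4.67% of all genes). The 17 were Naglu and 16 of the 23 genes that had risen after CCl4. Ctsl, Ctsc, Man2b1, Psap, Acp2, Grn and Mitf had risen after CCl4 and were not called in CCl4_PTH against control. Of these, Ctsc (log2 0.76 ± 0.28, adjusted p = 0.0522), Mitf (0.58 ± 0.23, adjusted p = 0.0668) and Ctsl (0.52 ± 0.22, adjusted p = 0.0772) just missed the threshold. They lay about as far above control as Ctsd (0.58 ± 0.10), which was called. Psap (0.25), Man2b1 (0.16), Grn (0.15) and Acp2 (0.11) lay nearer to control. Ctsk (log2 2.33 ± 0.40), Ctss (2.26 ± 0.32) and Atp6v0d2 (2.16 ± 0.36) were farthest above control. Scaled to library totals alone, 30 genes were higher and 0 lower, so the 5 lower calls too are relative to the bulk of genes.

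Set beside each other per kb of exon, the levels spanned a wide range. The length used joins all annotated exons of a gene (6489 bases for Ctsl, 2744 for Psap) and is not that of 1 mRNA. The order of the genes therefore depends on the annotation. By this measure Psap ranked highest in all 3 groups, at 105 ± 17.1 CPM per kb (SD, n = 6) in control and 199 ± 73.6 in CCl4. In control Lamp1 came next at 102 ± 5.92, within the spread of Psap, followed by Ctsd at 73.4 ± 4.01 and Ctsz at 58.6 ± 4.63. In CCl4 Ctsd was second at 159 ± 22.8 CPM per kb, within the spread of Psap, and Lamp1 ranked 4 at 93.6 ± 4.14. The lowest in control were Ctsk at 0.433 ± 0.289 CPM per kb, Mitf at 0.465 ± 0.0881 and Atp6v0d2 at 0.496 ± 0.307, whose spreads overlapped. Tfeb stood at 1.37 ± 0.100 CPM per kb in control and 1.19 ± 0.203 in CCl4, and in CCl4 Mitf at 1.39 ± 0.495 lay within its spread.

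**Figure D4:**
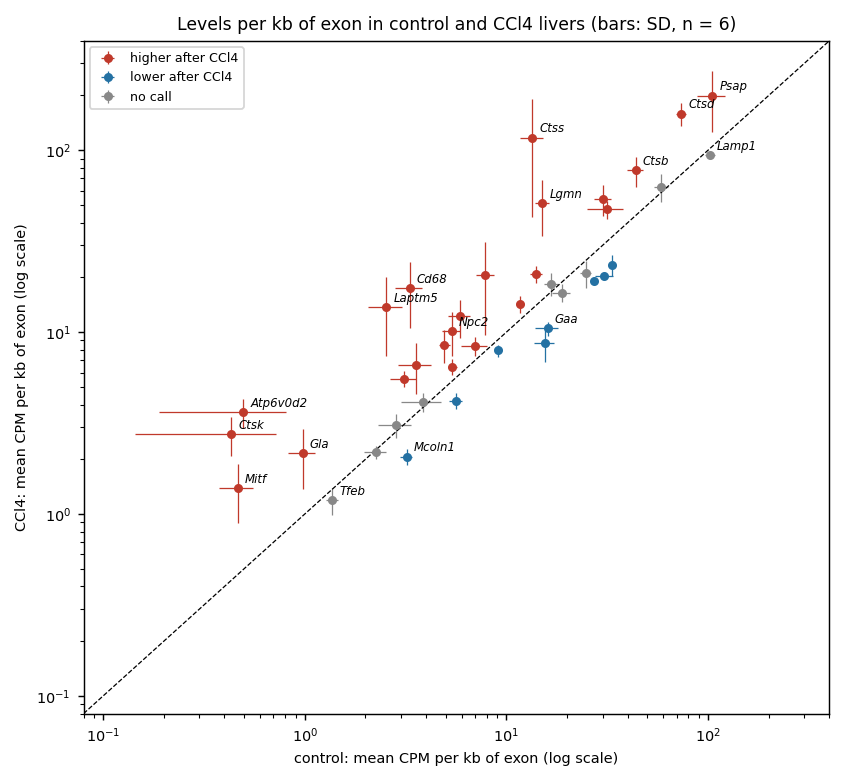
Mean level per kb of exon (CPM per kb, log axes) in control (x) and CCl4 (y) for the 40 genes, with SD bars over 6 libraries and a dashed line of equal levels. Genes called higher (red) lie above the line over the whole range of control levels, from Ctsk at 0.433 to Psap at 105. Those called lower (blue), on the TMM scale, lie just below it.

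Other genes of the pathway, 122 in all with 20 of autophagy among them, were tested in the same fit. After CCl4, 36 of the 122 were higher (29.5%, beside 26.3% of all genes) and 38 lower (31.1%, beside 21.2%), with a median log2 change of -0.01. The autophagy genes gave 12 of these lower calls and 1 of the higher. Among 35 other hydrolases and cofactors 15 were higher and 8 lower, with Pld3 (2.76-fold) and Galns (1.95-fold) up and Hyal2 (1.53-fold) and Arsa (1.89-fold) down. Among 32 other membrane and sorting genes 9 were higher and 10 lower, with the tetraspanin Cd63 15.1-fold and the macrophage metal transporter Slc11a1 5.72-fold higher, and the cobalamin exporter Lmbrd1 1.48-fold and the sialic acid exporter Slc17a5 1.68-fold lower. Of 17 other pump subunits 5 were higher and 0 lower, led by Tcirg1 (1.93-fold) and Atp6v0e (1.46-fold). Of 18 other regulators 6 were higher and 8 lower, with Tfec and the GTPase Rragd (3.57-fold) up and the folliculin partner Fnip1 (1.70-fold) and Zkscan3 (1.56-fold) down.

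In CCl4_PTH against CCl4, 13 of the 122 were higher (10.7%, beside 7.1% of all genes) and 8 lower (6.56%, beside 4.95%). Pld3 (1.59-fold), Cd63 (2.04-fold), Slc11a1 (2.40-fold) and Tcirg1 (1.43-fold) were lower, and Ctso (1.34-fold), Lmbrd1 (1.29-fold), Slc17a5 (1.29-fold), Fnip1 (1.47-fold) and Zkscan3 (1.41-fold) were higher. Of these, Pld3, Cd63, Slc11a1, Slc17a5 and Zkscan3 had been named for their p after CCl4. Galns, Hyal2, Arsa, Atp6v0e, Tfec and Rragd, named for it too, are left out here. The genes listed are thus a selection and do not show how the pathway moved. Counts of lower genes after CCl4 in these lists, as for the 8 lysosomal genes above, are on the TMM scale.

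The exons of 13 of the 40 genes share bases with another annotated gene, on the same strand for Ctsd, Ctsl and Glb1 and on the opposite strand for the rest or in addition. The counts of these 13 may hold reads of their neighbours, since use of strand in counting is not stated.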

How the data were processed

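RNA from 18 livers was sequenced as 150-base read pairs after removal of ribosomal RNA, per the labels. The authors deposited 1 table of estimated counts per gene, whole numbers not scaled to depth, as its identifiers and values show. Of the tools, HISAT2 2.2.1 and StringTie 2.1.5 are listed, without their roles, per the submitters' processing notes. The annotation and strand setting used for counting are not stated. Rounding changed 0 values. Of 54752 genes, 54723 matched GENCODE M21 (GRCm38), used for coordinates and exon length.

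The 3 groups were fitted together in edgeR 4.0.16 (R 4.3.3) with TMM, the expression filter at a minimum count of 10 and robust quasi-likelihood F tests without a block. Benjamini-Hochberg adjustment ran over all 21840 genes tested. Standard errors are the log2 change over the square root of F. Alternatives used DESeq2 1.42.0 and limma 3.58.1, and the closing section gives their effect. Counts were also simulated for CCl4 against control (21334 genes), with 200 genes changed in equal parts up and down. There the test recovered 37.3% of changes of 1.5-fold, 83.6% of 2-fold and 92.4% of 4-fold, and 2.74% of calls were false. In the data 47.4% of all genes tested were called, so these rates may not carry over.

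The 40 genes, the pathway and marker lists and the motifs were chosen with earlier results of these data known. Of the listed symbols, 257 of 258 were found, without Tf. Values per library are given for the 10 genes with the smallest p among those called in each of the first 2 comparisons, the 5 with the largest p after CCl4, the 2 most abundant per kb, and Mitf and Tfeb. Of each pathway list, the 2 genes with the smallest p per direction after CCl4 and the 1 with the smallest in CCl4_PTH against CCl4 are named. In CCl4_PTH against CCl4, Pld3, Cd63, Slc11a1, Slc17a5 and Zkscan3 are given beyond this rule. The Ctsc sequence, the ranges of other genes and the calls without single libraries were picked after their values were seen.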

Additional observations from a re-analysis of the deposited data

Results flagged for a closer look

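In 10 of 120 groups of 6 libraries (40 genes in 3 groups), 1 library lay so far from the next that the gap passed Dixon's 95% critical value, which chance alone does in about 1 of 20 groups. Of the 10, 6 were in library CCl4_PTH 1. There Ctsl was highest at 557 CPM (the other 5 had 187 to 256 CPM), Grn highest at 229 CPM (95.4 to 104 CPM), Asah1 highest at 49.1 CPM (32.3 to 37.4 CPM) and Atp6v1a highest at 45.0 CPM (37.7 to 40.4 CPM). In the same library Lipa was lowest at 85 CPM (119 to 136 CPM) and Glb1 lowest at 8.11 CPM (10.6 to 12.1 CPM). CCl4_PTH 1 also had the highest marker sums of its group for neutrophils (163 CPM, group median 15.2 CPM, with S100a8 at 57.7 CPM beside a group median of 1.63 CPM) and osteoclasts (61.7 CPM, the other 5 at 19.9 to 27.6 CPM). It was highest too for stellate cells and myofibroblasts (1020 CPM, median 685 CPM), cholangiocytes (22.2 CPM) and hepatocytes (56400 CPM). For Kupffer cells (321 CPM), T and NK cells (1.26 CPM), B cells (2.93 CPM), dendritic cells (14.9 CPM) and endothelium (172 CPM) it was lowest. The part of these cell types in these values was not tested.

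The other 4 were spread over 4 libraries. Ctsh was highest in CCl4 1 at 92.4 CPM (82.8 to 85.8 CPM) and Lamp1 highest in control 1 at 305 CPM (259 to 273 CPM). Atp6v1a was lowest in control 5 at 29.3 CPM (32.8 to 33.6 CPM), and Mitf was highest in control 4 at 3.95 CPM (2.41 to 2.86 CPM).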

How the results depend on the processing

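All 40 genes passed the filter on low counts, so none was lost to depth. Small changes may be missed. The test recovered 37.3% of simulated 1.5-fold changes with 200 genes changed. That setting is unlike these data, so the share missed here is not known. Of 1280 recomputed log2 changes, 95 lost and 59 gained a call, and 19 changed sign with a call on either side. A sign change between 2 values not called (46) was not counted as a reversal, a rule set after the first results were seen.

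Each reversal came with scaling by library totals instead of TMM. With totals alone, CCl4 against control gave 0 lower genes, with Ctsh at 0.07, Tpp1 at 0.38, Manba at 0.53, Neu1 at 0.17, Lipa at 0.43, Lamp1 at 0.44 and Lamp2 at 0.05. CCl4_PTH against control then gave 30 higher and 0 lower, with Ctsh at 0.13, Tpp1 at 0.34, Manba at 0.42, Neu1 at 0.14, Lipa at 0.41, Lamp2 at 0.46 and Scarb2 at 0.18. CCl4_PTH against CCl4 gave 0 higher and 6 lower. With totals outside ribosomal RNA loci, chosen after seeing the data, CCl4 against control gave 1 lower (Tpp1 0.27, Manba 0.42, Neu1 0.05, Lamp1 0.33), CCl4_PTH against CCl4 gave 1 higher, and CCl4_PTH against control gave 1 lower (Lamp2 0.24). Under these scalings the median of all genes moves too, and relative to it the called genes kept their side. A change of scaling shifts nearly all genes alike, so this was set in advance.

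CCl4_PTH against CCl4 was the least stable comparison. Fitted on those groups alone, 5 were lower. Leaving out CCl4 4 or CCl4_PTH 1 gave 2 to 5 higher and 5 to 12 lower, and leaving out CCl4 4 and 7 gave 1 higher and 2 lower; the removals of CCl4 libraries were chosen after seeing the data. With a replicate block, 0 were higher and 0 lower, beside 4 and 10. Libraries with the same number deviated from their group means with correlations of -0.209 to 0.083, so the numbers were not taken as pairs.

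All other counts of higher and lower genes stayed within 1.5 times those reported, in DESeq2, limma with quality weights, no filter, DESeq2 size factors and without controls 1 and 8 as well.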

Other observations

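Autophagy delivers cytoplasm and organelles to the lysosome, and 20 of its genes were measured in the same fit. After CCl4, 12 of the 20 were lower and 1 was higher, at a median log2 change of -0.36, beside 21.2% of all genes lower and 26.3% higher. The 12 calls are relative to the bulk of genes. Gabarapl1, an ATG8 protein that coats autophagosomes, had 202 to 262 CPM in control (median 223), 70.8 to 118 CPM in CCl4 (median 85.9) and 99.9 to 196 CPM in CCl4_PTH (median 145). Its control libraries lay above all others, and it was 2.53-fold lower in CCl4 than in control (log2 -1.34 ± 0.16, adjusted p = 3.02e-06). The autophagy receptor Optn was 1.92-fold lower in CCl4 than in control (log2 -0.94 ± 0.12), with no overlap.

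The 1 higher gene was Sqstm1, the cargo receptor p62, whose RNA is known to be induced by NRF2 and whose protein is itself degraded by autophagy. It had 174 to 278 CPM in control (median 208), 264 to 416 CPM in CCl4 (median 324) and 153 to 192 CPM in CCl4_PTH (median 180). Control and CCl4 overlapped, and every CCl4_PTH library lay below every CCl4 library. Sqstm1 was 1.53-fold higher in CCl4 than in control (log2 0.62 ± 0.13, adjusted p = 0.000672) and 1.84-fold lower in CCl4_PTH than in CCl4 (log2 -0.88 ± 0.13, adjusted p = 0.000631). In that comparison 4 of the 20 were higher and 1, Sqstm1, was lower.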
